A study of Rattus norvegicus with 10 samples.

Results

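The Toll-like receptors *Tlr1*, *Tlr2*, *Tlr3*, *Tlr4*, *Tlr7*, *Tlr8* and *Tlr9*, the co-receptor *Cd14* and the adaptors *Myd88* and *Ticam1* were followed in rat splenic macrophages sorted as M2 macrophages. These 10 genes were chosen by name as the receptors of microbial products and the adaptors that carry their signal. The deposited table held 9 of them among 9003 genes, and *Ticam1*, which encodes the adaptor TRIF, was not analysed here. The 4 groups were sequenced by RNA-seq, all from WKY/NCrj rats, and the libraries were 2 control, 2 GN, 3 EV+ and 3 EV- libraries. Control macrophages came from rats in the physiological condition. GN macrophages came from rats with glomerulonephritis that received no cells, and nephritis was induced with TF78, a mouse monoclonal antibody that binds the rat glomerular basement membrane (GBM). EV+ and EV- macrophages (labelled EVposi and EVnega) both came from nephritic rats given human adipose-derived mesenchymal stem cells (ASCs) stained with the membrane dye DiD, so both carried the nephritis and the ASC treatment. They were separated by flow cytometry into DiD-positive cells, taken to hold extracellular vesicles (EVs) of the ASCs, and DiD-negative cells. The nephritis model used female rats aged 7 to 12 weeks. The day of harvest of each library and any pooling of animals are not given in the sources used here, so the p-values measure the spread between these libraries.

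Toll-like receptors recognize conserved microbial molecules and nucleic acids. Receptors of the cell surface bind lipids and proteins (TLR1, TLR2 and TLR4 here), and receptors of the endosome bind RNA or DNA (TLR3, TLR7, TLR8 and TLR9). CD14 delivers lipopolysaccharide to TLR4, and it is typical of monocytes and macrophages. MyD88 links most of these receptors to NF-kB and inflammatory cytokines, and TRIF links TLR3 and TLR4 to type I interferon. Splenic macrophages filter blood-borne material and use this pathway to sense it.

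These promoters are shown because *Tlr9* was the member called lower than control in all 3 other groups and *Myd88* is the adaptor through which TLR9 signals. Windows of RefSeq sequences (GRCr8) were read only for genes of the deposited table, and so for 9 of the 10 genes. Each line gives the 250 bases before the annotated start, 5' to 3' along the gene, at chr8:115743157-115743406 (plus strand) for *Tlr9* and chr8:127956231-127956480 (minus strand) for *Myd88*. Capitals mark the motifs searched on both strands, which were TGANTCA (an AP-1 site), GAGGAA (a PU.1 core), the interferon-stimulated response element (ISRE) and an NF-kB form.

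Tlr9: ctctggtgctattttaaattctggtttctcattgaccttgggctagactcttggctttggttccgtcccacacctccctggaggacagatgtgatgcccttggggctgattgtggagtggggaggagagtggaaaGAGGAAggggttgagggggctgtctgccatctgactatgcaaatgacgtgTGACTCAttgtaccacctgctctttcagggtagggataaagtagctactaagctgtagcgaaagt

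Myd88: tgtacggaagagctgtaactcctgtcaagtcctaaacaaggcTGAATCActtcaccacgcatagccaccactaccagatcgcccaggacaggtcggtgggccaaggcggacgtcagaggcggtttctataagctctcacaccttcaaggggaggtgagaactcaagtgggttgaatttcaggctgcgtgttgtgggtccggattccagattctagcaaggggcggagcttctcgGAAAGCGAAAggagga

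The *Tlr9* window held TGANTCA 65 bases before the start and GAGGAA 115 bases before it. The *Myd88* window held TGANTCA 208 bases before the start and the ISRE 16 bases before it. TGANTCA was found in 2 of the 9 members' windows and in 6.34% of all 33469 windows. GAGGAA was found in 6 of the 9 (*Cd14*, *Tlr3*, *Tlr4*, *Tlr7*, *Tlr8* and *Tlr9*) and in 23.3% of all windows. The ISRE was found in 1 of the 9 against 3.41%, and the NF-kB form in 0 of the 9 against 1.3%. The members' windows were taken from 6970 windows of genes of the deposited table, 1 per gene. Among these the shares were 4.13% (TGANTCA), 23.1% (GAGGAA), 2.81% (ISRE) and 1.55% (NF-kB form). These matches describe the letters in the windows, and the counts below were made by the authors on another build (rn6).

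The values are reads on each gene scaled to library size by the TMM method, as TMM-normalized CPM. The libraries held 19270515 to 26617093 reads on the genes of the table, so that 3 reads, taken as the floor of detection, stood for 0.113 to 0.153 CPM. Transcript lengths were not used here, and levels are compared between groups and not between genes. The macrophage genes *Csf1r* (5800 to 8155 CPM), *Adgre1* (1025 to 1491 CPM) and *Lyz2* (15325 to 20176 CPM) were high in all 10 libraries. Other macrophage genes of the same list of 11, *C1qa*, *C1qb*, *C1qc* and *Spic*, were low, at 1.75 to 11.2 CPM. The M2 markers *Cd163* and *Mrc1* were at most 1.81 CPM in any library and at 0 in at least 1 library of the control and EV+ groups. In EV- macrophages the summed level of 6 natural killer and T cell markers was 36.5 to 482 CPM, against 12.4 to 28.1 CPM in the other groups, and it was highest in EV- replicate 1.

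Members were compared between groups with limma on log2(CPM + 1), and a difference was called at a Benjamini-Hochberg FDR under 0.1 over all 9003 genes. Among the 4 groups, 2 of the 9 members were called, *Cd14* (adjusted p = 0.0594) and *Tlr9* (adjusted p = 0.0946), where 2.57% of all genes were called. The other 7 members did not pass. The level of each member in each library is plotted by group.

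**Figure D1:**
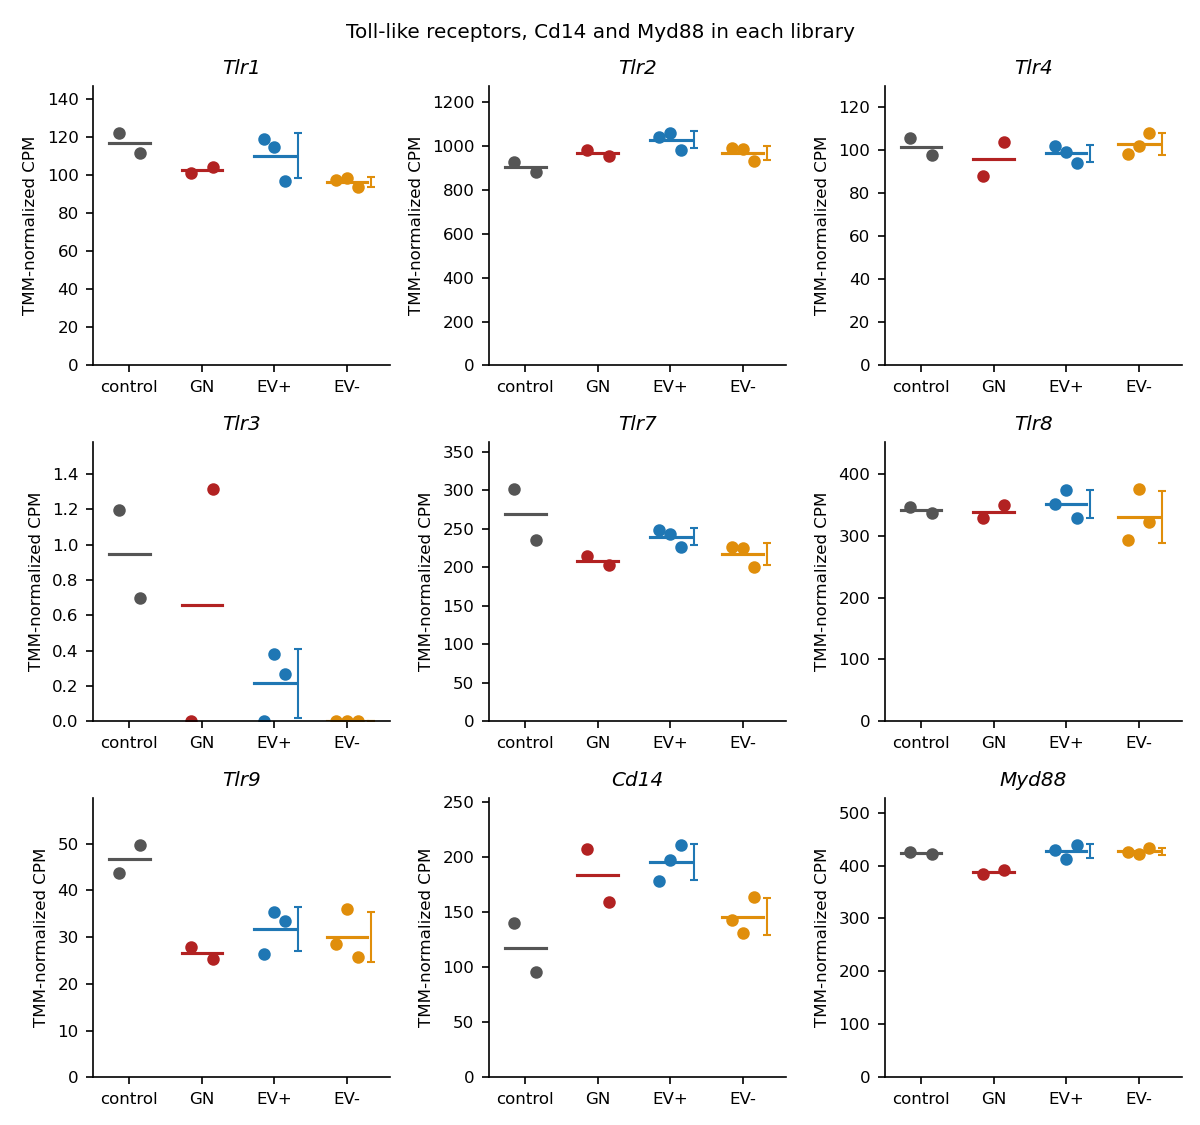
Level of the 9 members in each of the 10 libraries (y axis, TMM-normalized CPM, from 0; x axis, group). Points are libraries, horizontal lines are group means, and the bars beside the groups of 3 libraries are ± SD; the control libraries of *Tlr9* (43.6 and 49.8 CPM) lie above all others, and *Tlr3* is at 0 in all EV- libraries.

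*Tlr9*, the endosomal receptor for unmethylated CpG DNA, had the highest level in the control. Its level was 43.6 and 49.8 CPM in the control libraries and 27.8 and 25.3 CPM in the GN libraries. It was 26.4, 35.3 and 33.5 CPM in EV+ and 28.6, 36.0 and 25.6 CPM in EV- macrophages. Both control libraries lay above all 8 others, and the other 3 groups overlapped each other. Against control, *Tlr9* was lower in GN by a log2 difference of -0.79 (SE 0.17, 95% interval -1.16 to -0.42, limma adjusted p = 0.0452). It fell by 0.55 in EV+ (interval -0.89 to -0.21, limma adjusted p = 0.0997) and by 0.63 in EV- macrophages (interval -0.97 to -0.29, limma adjusted p = 0.0683). These 3 comparisons share the 2 control libraries. In bulk RNA, fewer cells that express a gene and less RNA per cell cannot be told apart.

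Of the 3 *Tlr9* calls, the GN and EV- calls each held under 13 of 18 alternatives and the EV+ call under 8. Once the replicate number entered as a block, the difference was -0.52 and the limma adjusted p was 0.119. The GN call was lost when any control or GN library was left out (limma adjusted p of up to 0.366) and without the intensity trend (0.158).

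B cells also express *Tlr9*, so B cell markers are given beside it. The summed level of 3 B cell markers was 390.4 to 455 CPM in control, 318 to 394 CPM in GN, 377 to 459.9 CPM in EV+ and 346 to 446 CPM in EV- macrophages, and these ranges overlapped. Among them, *Ms4a1*, which encodes the B cell antigen CD20, was at most 1.72 CPM in any library. *Cd79b*, a chain of the B cell receptor, was 87.0 and 109 CPM in the control libraries against 42.1 and 67.6 CPM in GN, 66.0, 69.7 and 71.1 CPM in EV+ and 62.4, 73.0 and 71.7 CPM in EV- macrophages. As for *Tlr9*, both control libraries lay above all 8 others, and *Cd79b* fell by 0.85 in GN (limma adjusted p = 0.0331). *Cd22* made up most of the sum, at 275 to 389 CPM. The summed level of 3 markers of plasmacytoid dendritic cells, which also express *Tlr9*, was 263 to 268 CPM in control, 259 to 270 CPM in GN, 261 to 319 CPM in EV+ and 257 to 317 CPM in EV- macrophages. *Bst2* made up most of this sum, at 250 to 312 CPM, and *Tcf4* and *Cox6a2* were at most 7.06 CPM. The part of B cells and plasmacytoid dendritic cells in the *Tlr9* result was not tested.

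*Cd14* was higher in GN and EV+ macrophages than in control. Its level was 140 and 95.5 CPM in the control libraries, 207 and 159 CPM in GN, 178, 197 and 211 CPM in EV+ and 143, 131 and 164 CPM in EV- macrophages. The GN and EV+ libraries were all above the control libraries, whereas the EV- range lay partly inside that of the control. Against control, *Cd14* rose by 0.65 in GN (log2, SE 0.17, 95% interval 0.29 to 1.0, limma adjusted p = 0.0998) and by 0.75 in EV+ macrophages (SE 0.15, interval 0.42 to 1.08, limma adjusted p = 0.0180). In EV- macrophages the difference from control was 0.33 (interval 0.0017 to 0.65) and did not pass (limma adjusted p = 0.379). The GN value lay at the threshold and was lost under 10 of 18 alternatives, among them edgeR on the recovered reads (adjusted p = 0.134). The EV+ call was lost without the intensity trend (limma adjusted p = 0.117) and without control replicate 2 (difference 0.47, limma adjusted p = 0.279).

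Between the sorted fractions, all 3 EV+ libraries had more *Cd14* than all 3 EV- libraries. The difference was 0.42 on the log2 scale (SE 0.14, interval 0.13 to 0.71), with an unadjusted limma p of 0.00795, and it did not pass over all genes (limma adjusted p = 0.934). The adjusted p was between 0.349 and 1 under the 18 alternatives.

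*Itgam*, the CD11b chain of the antigen by which cells were enriched, was also higher than control in all 3 other groups (0.57, 0.57 and 0.39 in GN, EV+ and EV-; limma adjusted p of 0.0126, 0.00323 and 0.0488). The summed level of 11 macrophage markers was 24397 to 24732 CPM in control and 28546 to 30635 CPM in the other groups. *Lyz2* made up most of this sum, at 15325 to 20176 CPM. Of the 11 means, 9 were higher and 2 lower than control in GN, 8 and 3 in EV+, and 5 and 6 in EV- macrophages. The monocyte marker *Ly6c* was 82.9 and 62.6 CPM in the control libraries against 34.2 and 36.5 CPM in GN and 22.3 to 52.3 CPM in EV+ and EV- macrophages, and its fall was called in EV+ (-0.98, limma adjusted p = 0.0917). The monocyte marker *Vcan* went the other way, at 0.385 and 0 CPM in the control libraries and 0.714 to 3.28 CPM elsewhere, and its rise was called in GN and EV+ (limma adjusted p of 0.0674 and 0.0302). The summed level of 4 monocyte markers was 3384 to 3637 CPM in control, 3520 to 3797 CPM in GN, 2794 to 3772 CPM in EV+ and 3019 to 3389 CPM in EV- macrophages. *Plac8* made up most of it, at 2764 to 3754 CPM. The summed level of 7 neutrophil markers was 550 to 556 CPM in control and 611 to 744 CPM in the other groups. *Csf3r* made up most of this sum, at 528 to 723 CPM, and the other markers of the list were at most 19.0 CPM in any library. *Csf3r* rose by 0.37 in EV+ and 0.33 in EV- macrophages (limma adjusted p of 0.0268 and 0.0600). Of the 7 means, 4 were higher and 3 lower than control in GN. In EV+ and in EV- macrophages 6 were higher and 1 lower. The part of the macrophage, monocyte and neutrophil content in the *Cd14* result was not tested.

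The surface receptors differed little between groups. *Tlr2*, which forms dimers with TLR1 or TLR6 and binds bacterial lipopeptides, was 928 and 881 CPM in the control libraries and 984 and 953 CPM in the GN libraries. It was 1043, 1061 and 984 CPM in EV+ and 991, 985 and 931 CPM in EV- macrophages. The control libraries were the lowest, and the largest difference was 0.19 for EV+ against control (interval 0.04 to 0.33, limma adjusted p = 0.208).

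*Tlr1* was 122 and 111 CPM in control, 101 and 104 CPM in GN, 119, 115 and 96.7 CPM in EV+ and 97.3, 98.6 and 93.6 CPM in EV- macrophages. Its largest difference was -0.27 for EV- against control (interval -0.48 to -0.06, limma adjusted p = 0.226). *Tlr4*, the receptor of lipopolysaccharide, was 87.7 to 108 CPM in all 10 libraries with every group overlapping every other. Its 6 differences were between -0.09 and 0.10, and the widest interval was -0.31 to 0.13 (GN against control). *Tlr1* lies between *Tlr6* and *Tlr10* in the RefSeq order, and these are close paralogs, so reads could be shared among them and their values are uncertain.

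Of the endosomal receptors, *Tlr7* and *Tlr8* bind single-stranded RNA and are neighbours on the X chromosome. *Tlr7* was 302 and 236 CPM in control, 215 and 203 CPM in GN, 248, 243.5 and 227 CPM in EV+ and 227, 225 and 201 CPM in EV- macrophages. The GN and EV- libraries were all below the control libraries. The differences from control were -0.35 in GN (interval -0.59 to -0.12, limma adjusted p = 0.196) and -0.30 in EV- macrophages (interval -0.51 to -0.08, limma adjusted p = 0.193), and neither passed. Both passed with DESeq2 on the recovered reads (adjusted p of 0.0733 and 0.0899) and without control replicate 2 (limma adjusted p of 0.0755 and 0.0673).

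*Tlr8* was 293 to 376 CPM over all libraries, and its differences were between -0.06 and 0.09. Both ends of this range were EV- libraries (293, 376 and 322 CPM), and the control libraries, at 346 and 337 CPM, lay inside it.

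*Tlr3*, the receptor of double-stranded RNA, was close to the floor of detection. It was 1.19 and 0.701 CPM in control, 0 and 1.32 CPM in GN, 0, 0.379 and 0.268 CPM in EV+ and 0 in all 3 EV- libraries. These values stood for 31 and 17 reads in control, 0 and 35 in GN, 0, 9 and 6 in EV+ and 0, 0 and 0 in EV-, where 3 reads would have been 0.117 to 0.153 CPM. Its control mean was at least 6.84-fold higher than that of EV- macrophages, set at their mean floor of 0.138 CPM per library. The limma test did not pass for EV- against control (adjusted p = 0.259), while DESeq2 on the recovered reads called it (adjusted p = 0.0287). At this depth it was not detectable in EV-, and counts of PCR-amplified reads without molecular identifiers carry more than counting error.

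*Myd88* had similar levels in control, EV+ and EV- macrophages. It was 426 and 421 CPM in control, 430, 412 and 440 CPM in EV+ and 426, 421 and 434 CPM in EV- macrophages. The GN libraries, at 384 and 392 CPM, were below all 8 others. The difference of GN from control was -0.13 (interval -0.28 to 0.03, limma adjusted p = 0.596), and EV+ and EV- were each 0.14 above GN (intervals of -0.0013 to 0.28 and -0.0016 to 0.28, limma adjusted p of 0.705 and 0.641). EV+ and EV- macrophages differed by 0.00 with an interval of -0.12 to 0.12.

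**Figure D2:**
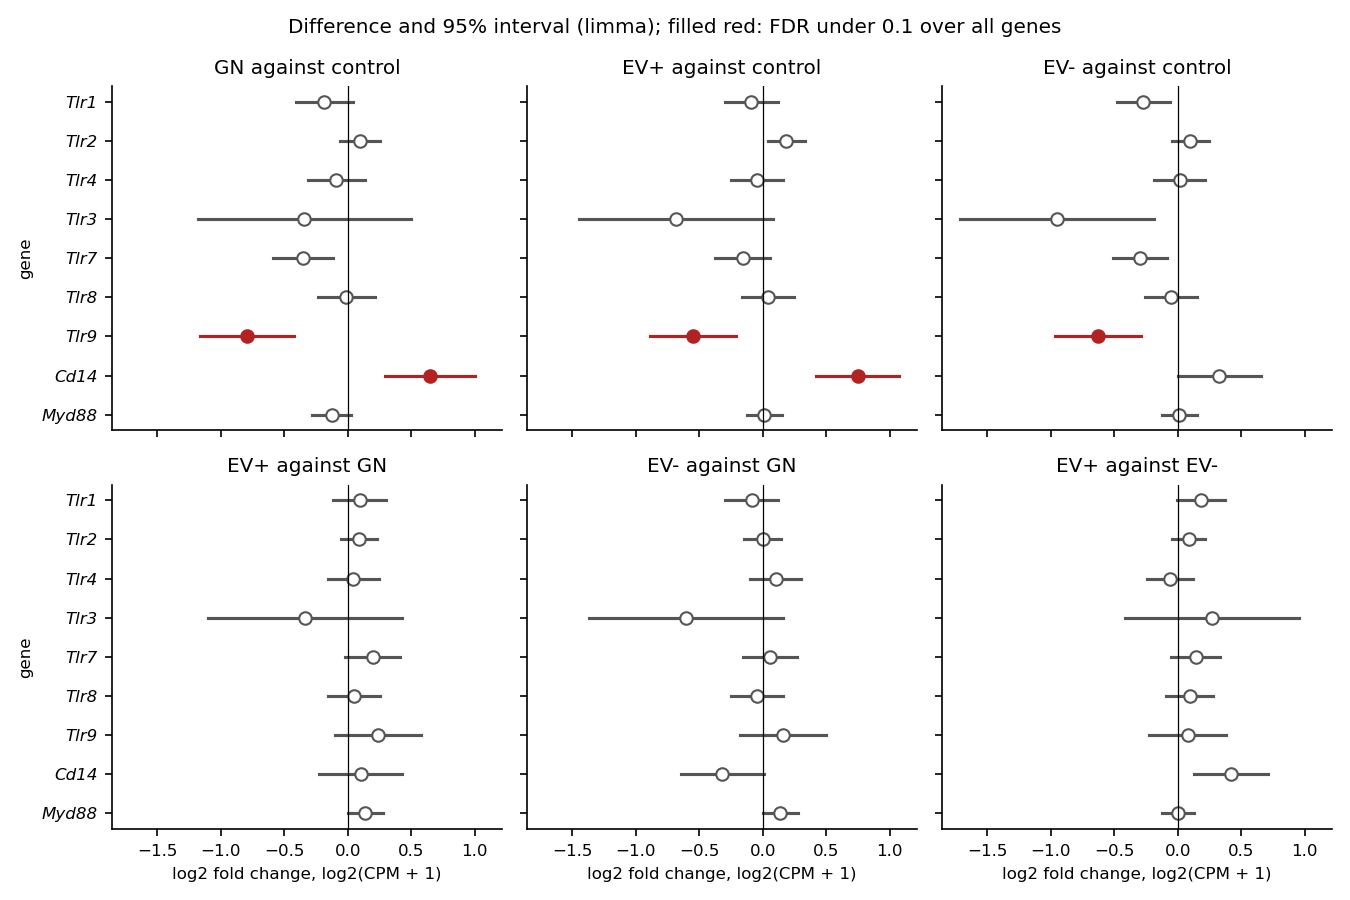
Difference of each member in the 6 comparisons (x axis, log2 fold change on the log2(CPM + 1) scale; y axis, gene), with 95% intervals from limma. Filled red points passed an FDR under 0.1 over all genes; these are *Tlr9* against control in GN, EV+ and EV- macrophages (-0.79, -0.55 and -0.63) and *Cd14* in GN and EV+ macrophages (0.65 and 0.75).

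Nephritis was compared with the physiological condition to ask how the disease alone changed these genes. In GN against control, 2 of the 9 members were called, *Tlr9* lower and *Cd14* higher, where 1.75% of all genes were called. The groups did not overlap for 6 members (*Tlr1*, *Tlr2*, *Tlr7*, *Tlr9*, *Cd14* and *Myd88*), against 43.9% of all genes. The median difference over the 9 members was -0.13, with 2 higher and 7 lower, beside a median of 0.00 over all genes. In EV+ against control 2 members were called (*Cd14* higher, *Tlr9* lower) where 3.63% of all genes were called, and 4 members did not overlap, against 30.5%. In EV- against control 1 member was called (*Tlr9*) where 2.84% of all genes were called, and 5 did not overlap, against 29.1%. The member medians were -0.05 and -0.06 in these comparisons.

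EV+ and EV- macrophages, both from ASC-treated rats, were each compared with GN and then with each other. Only the treated rats gave cells sorted by DiD, so treatment and sorting cannot be told apart against GN. In EV+ against EV-, an effect of vesicle uptake and a difference in which cells took up the dye cannot be told apart. In EV+ against GN, limma called 0 of the 9 members and 0.122% of all genes, and 0 members had an unadjusted p under 0.05. In EV- against GN it called 0 members and 0.378% of all genes, again with 0 members at an unadjusted p under 0.05. In EV+ against EV- it called 0 members and 0.0222% of all genes, and 1 member (*Cd14*) had an unadjusted p under 0.05. These counts were also 0 with edgeR and DESeq2 on the recovered reads. The groups did not overlap for 3 members in EV+ against GN (*Tlr2*, *Tlr7* and *Myd88*, against 23.0% of all genes), for 2 in EV- against GN (*Tlr1* and *Myd88*, against 25.4%) and for 2 in EV+ against EV- (*Tlr7* and *Cd14*, against 8.91%). The 95% intervals of EV+ against EV- reached at most 0.38 in size for the 7 members other than *Cd14* and *Tlr3*. They were -0.22 to 0.38 for *Tlr9*, -0.0039 to 0.37 for *Tlr1* and -0.05 to 0.33 for *Tlr7*.

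The genes whose pattern over the 10 libraries lay closest to a called member were found among 7192 genes with a mean of at least 5 CPM. Likeness was measured as the root mean square difference of log2(CPM + 1) values, each gene centred on its own mean. For *Tlr9*, whose own spread by this measure was 0.310, these were *Nrip1* (0.133), *Trim39* (0.155) and *Rcn3* (0.156). *Nrip1*, a nuclear receptor corepressor, averaged 68.4 CPM in control, 49.0 in GN, 51.6 in EV+ and 48.7 in EV- macrophages. For *Cd14*, with a spread of 0.331, they were *Taf1b* (0.151), *Pea15* (0.154) and *RGD1310127* (0.155). *Pea15* averaged 12.8 CPM in control, 20.4 in GN, 22.7 in EV+ and 17.5 in EV- macrophages. The libraries are shared between the genes of each pair, and the values describe them with no test.

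The other genes of the pathway were read from 7 lists. Of the 6 other Toll-like receptors, 3 were in the table. *Tlr5*, the flagellin receptor, was 2.81 and 0.866 CPM in control, 7.49 and 6.14 CPM in GN, 4.69, 5.09 and 7.49 CPM in EV+ and 2.53, 3.26 and 3.11 CPM in EV- macrophages. All GN and EV+ libraries lay above the control and EV- libraries. *Tlr5* rose by 1.55 in GN (limma adjusted p = 0.0331) and by 1.32 in EV+ macrophages against control (limma adjusted p = 0.0284). Its differences in EV+ against EV- (0.75) and in EV- against GN (-0.98) did not pass (limma adjusted p of 0.962 and 0.329). In these 2 comparisons 8.91% and 25.4% of all genes did not overlap. The GN call was lost without control replicate 2, GN replicate 1 or GN replicate 2 and without the intensity trend, and the EV+ call without control replicate 2 or EV+ replicate 3 and in a fit of only these groups. *Tlr6* and *Tlr10* were not called in any comparison, and *Tlr6* was 54.8 to 78.1 CPM in all libraries.

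Of 16 co-receptors, chaperones and trafficking genes, 15 were in the table. *Lbp*, the plasma protein that hands lipopolysaccharide to CD14, was 15.6 and 13.9 CPM in control and 28.8 to 40.2 CPM in the 8 other libraries. It rose by 1.17 in GN, 0.98 in EV+ and 1.11 in EV- macrophages (limma adjusted p of 0.00265, 0.00152 and 0.000538), and all 3 calls held under all 18 alternatives. *Lgmn*, an endosomal protease able to cleave TLR9, was 380 and 438 CPM in control and 297 to 332 CPM elsewhere. It fell in GN, EV+ and EV- macrophages (differences of -0.40, -0.38 and -0.35, limma adjusted p of 0.0480, 0.0268 and 0.0461). Each *Lgmn* call was lost without the intensity trend and without control replicate 2. The GN call was also lost without either GN library, and the EV- call without EV- replicate 3. The EV+ call was also lost without EV+ replicate 3 and with only the groups compared. *Cd36*, a scavenger receptor that works with TLR2, fell by 0.40 in GN (limma adjusted p = 0.0743). *Ctss*, encoding the endosomal protease cathepsin S, rose by 0.32 in EV+ macrophages against control (limma adjusted p = 0.0302). The *Cd36* call held under 11 and the *Ctss* call under 15 of 18 alternatives, and neither held without control replicate 2, without the trend or with only the groups compared. The *Cd36* call was also lost without either GN library, EV+ replicate 3 or EV- replicate 3. *Ly96*, which encodes the MD-2 partner of TLR4, and *Unc93b1*, which carries the endosomal receptors from the endoplasmic reticulum, were not called in any comparison. *Ly96* was 38.3 and 40.1 CPM in control and 24.2 to 36.6 CPM in the other libraries, and its difference in EV- against control was -0.47 (limma adjusted p = 0.168).

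Adaptors and kinases below the receptors were mostly level. Of 24 listed, 22 were in the table, and *Ikbke* was the only one called by limma, 1 of 22 in each comparison with control, where 1.75%, 3.63% and 2.84% of all genes were called in GN, EV+ and EV- macrophages. The counts of 1 of 12 and 1 of 8 below stand beside the same shares. This gene encodes IKK-epsilon, a kinase of the interferon arm. It was 80.4 and 60.1 CPM in control and 100 to 125 CPM elsewhere, and rose by 0.72, 0.65 and 0.67 in GN, EV+ and EV- macrophages (limma adjusted p of 0.0179, 0.0118 and 0.0127). All 3 calls were lost without control replicate 2. The GN and EV- calls were also lost without the intensity trend, and the GN call without either GN library. The list medians against control were 0.01, 0.01 and 0.03. Of 16 negative regulators, 12 were in the table and 1 was called, *Atf3*, a stress-induced repressor of Toll-like receptor targets. It fell in all 3 other groups against control, with differences of -0.88 in GN, -1.59 in EV+ and -1.41 in EV- macrophages (limma adjusted p of 0.0181, 4.16e-05 and 0.000140). The GN call of *Atf3* was lost without the intensity trend, without control replicate 1 and without either GN library. Of 10 transcription factors, 8 were in the table, and *Irf3*, the interferon factor below TRIF, fell by 0.39 in EV+ macrophages (limma adjusted p = 0.0927), a call that held in 5 of 18 alternatives.

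Of 18 genes induced through MyD88 and NF-kB, 14 were in the table, and some of these fell against control. In GN 3 of the 14 fell (*Ccl3*, *Nfkbia* and *Il1b*) and 0 rose, where 1.75% of all genes were called, with a list median of -0.34 and 3 means above control (*Cxcl1*, *Il1a* and *Sod2*, none called). In EV+ and in EV- macrophages 6 of the 14 fell (among them *Ccl3*, *Cd83* and *Nfkbiz*) and 0 rose, where 3.63% and 2.84% of all genes were called. The list medians were -0.53 and -0.61 beside 0.00 and 0.01 over all genes, and 2 and 1 of the 14 had means above control. The control libraries stood apart from each other here, and without control replicate 1 the counts were 1, 2 and 2 in GN, EV+ and EV- macrophages. The GN count was 0 without GN replicate 1 and 1 without GN replicate 2. Without the intensity trend the counts were 0, 3 and 2. The chemokine *Ccl3* was 825 and 563 CPM in control, 325 in both GN libraries, 169 to 214 CPM in EV+ and 178 to 253 CPM in EV- macrophages.

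The activation marker *Cd83* was the only gene of the 7 lists called in a comparison without the control in the main limma setting. Other settings also called *Ccl3*, *Atf3*, *Ctss*, *Cxcl10*, *Ccl5* or *Ifit3* in such comparisons. It was 116 and 113 CPM in GN and 49.5, 51.1 and 51.9 CPM in EV- macrophages, and fell by 1.15 (limma adjusted p = 0.000832). In EV+ it was 67.8, 80.3 and 78.9 CPM, above all EV- and below all GN libraries. Neither EV+ difference passed in the main fit, at -0.59 against GN and 0.56 against EV- (limma adjusted p of 0.195 and 0.247). In these comparisons 23.0% and 8.91% of all genes did not overlap. The *Cd83* call of EV- against GN held under all 18 alternatives.

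Genes induced through TRIF and interferon were also mostly lower in mean than control. Of 12 listed, 11 were in the table, and all 11 had lower means in GN, where 0 passed in limma beside 1.75% of all genes. In GN 2 were called lower with DESeq2 (294 of 8999 genes called), 6 in the fit blocked by replicate number (205 of 9003) and 3 without EV+ replicate 2 (214 of 9003). *Cxcl10*, an interferon-induced chemokine, was 32.1 and 21.0 CPM in control and 7.65 to 17.2 CPM in the EV+ and EV- libraries. It fell by 0.99 in EV+ (limma adjusted p = 0.0832) and by 1.23 in EV- macrophages (limma adjusted p = 0.0357), and *Rsad2* and *Mx2*, which encode antiviral proteins, also fell in EV- macrophages (differences of -0.82 and -0.92, limma adjusted p of 0.0619 and 0.0937). The *Cxcl10* calls held under 9 (EV+) and 16 (EV-) of 18 alternatives, the *Rsad2* call under 13 and the *Mx2* call under 8. The *Mx2* call was lost with edgeR and with DESeq2. Without the intensity trend all of these calls were lost, and 0 of the 11 were called in EV+ or EV- macrophages against control. In the main fit 1 of the 11 was called lower in EV+ and 3 in EV- macrophages, where 3.63% and 2.84% of all genes were called. In a fit blocked by replicate number, 7 of the 11 were lower in EV+ and 8 in EV- macrophages, and 1 (*Ccl5*) was higher in EV- macrophages. That fit called 379 and 290 of all 9003 genes. Without control replicate 1, 0 were lower in either group, the EV+ count was also 0 without GN replicate 1 or 2, EV+ replicate 2 or EV- replicate 1, and the EV- count was 1 without EV- replicate 2. *Ccl5*, a chemokine gene named after its values were seen, was higher in mean in EV- macrophages, at 126, 14.8 and 9.07 CPM against 2.72 to 5.78 CPM elsewhere (limma adjusted p = 0.159), and it was called higher than control with edgeR, with DESeq2, with the block and without EV- replicate 3. The natural killer and T cell gene *Prf1* was 335, 51.4 and 24.5 CPM in the same 3 libraries and 7.0 to 18.4 CPM elsewhere, and its part in *Ccl5* was not tested. Against GN rather than control, 9 of the 11 TRIF and interferon genes had higher means in EV+ and 8 in EV- macrophages, and limma called 0. These response genes have many inducers other than Toll-like receptors.

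**Figure D3:**
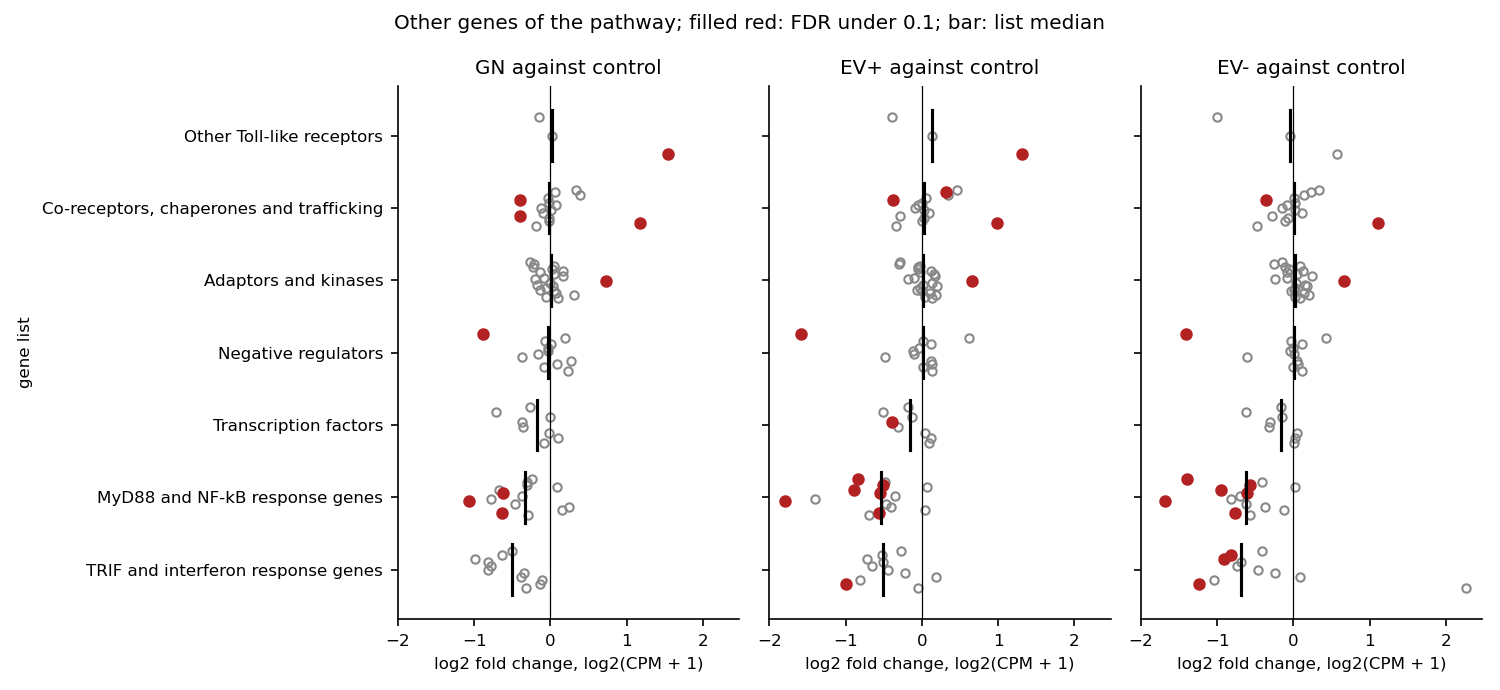
Differences of the other genes of the pathway from control in GN, EV+ and EV- macrophages (x axis, log2 fold change on the log2(CPM + 1) scale; y axis, gene list). Each point is a gene, filled red where it passed an FDR under 0.1, and bars are list medians; the adaptor and kinase list is centred at 0.01 to 0.03, and the MyD88 and NF-kB response list at -0.34, -0.53 and -0.61.

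**Figure D4:**
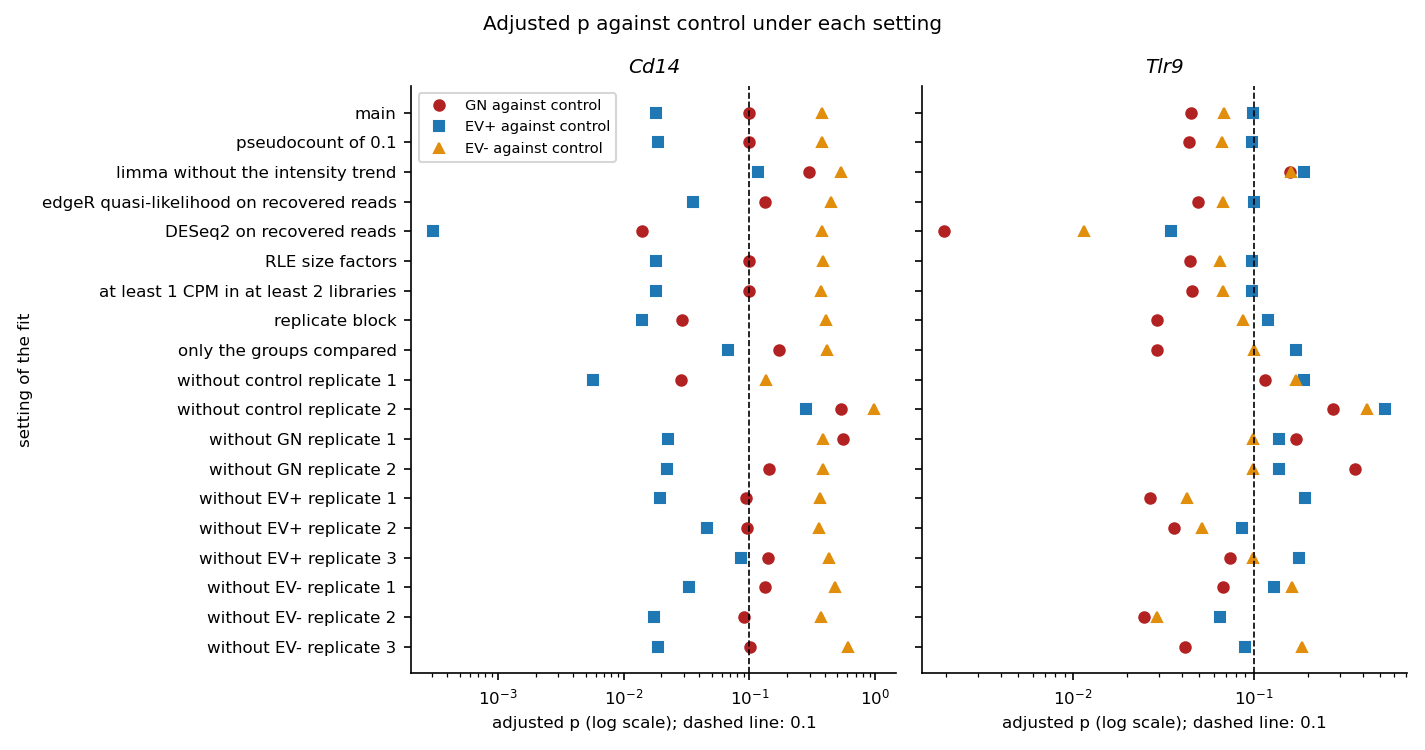
Adjusted p of *Cd14* and *Tlr9* against control (x axis, log scale; the dashed line is the threshold of 0.1) under the main setting and the 18 alternatives (y axis). The EV+ value of *Cd14* lies left of the line in 16 of 18 alternatives, and the *Tlr9* values lie left of it in 13 (GN), 8 (EV+) and 13 (EV-) of 18.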

How the data were processed

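Splenic M2 macrophages of 4 groups were sequenced in 10 libraries made with SMART-Seq v4 and Nextera XT. The authors aligned the reads to rn6 with STAR (version 2.5.3), counted reads per RefSeq gene with HTSeq (version 0.6.0), removed genes whose maximum CPM was under 1 and applied TMM normalization in edgeR. The deposited signal is therefore TMM-normalized CPM. The library kit does not mark strand, so reads of a gene and an antisense partner cannot be told apart. Genes under the filter could not be tested.

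Dividing each deposited value by what 1 read was worth in that library gave whole reads (100% within a tolerance of 0.02), and these recovered reads were kept. Replicates differed by a chi-square per degree of freedom of 13.4 to 45.4. No column was left without a sample. Of the symbols, 18 had been turned into dates. *Il6* and the B cell markers other than *Cd79b*, *Ms4a1* and *Cd22* were not analysed here.

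The main test was limma (version 3.58.1, R version 4.3.3) on log2 of CPM plus a pseudocount of 1, with the 4 group means, 6 residual degrees of freedom and an intensity trend, at a Benjamini-Hochberg FDR under 0.1 over 9003 genes. Fold changes on this scale understate the change of low genes. Other settings tried were a pseudocount of 0.1, limma without the trend, edgeR's quasi-likelihood test (version 4.0.16) and DESeq2 (version 1.42.0) on the recovered reads, RLE size factors, at least 1 CPM in at least 2 libraries, the replicate number as a block, only the groups compared, and each library left out. The scripts were tested on simulated data. Named genes were all members, at most 4 called genes per list and comparison in order of p, and the 3 genes nearest each called member; *Ly96*, *Unc93b1*, *Tlr6*, *Tlr10*, *Ccl5* and the cell type markers were named besides, after their values were seen. The members and lists were chosen with earlier results of these data known.

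Residuals of same-numbered EV+ and EV- libraries correlated across genes with r of 0.203, 0.295 and 0.122, and differently numbered ones with -0.229 to -0.0129. Residuals about a group mean cancel within the group, so these r values are not independent. For control and GN r was 0.0878 with the same number and -0.0878 otherwise. The labels give the numbers but do not explain them, and they were taken to pair EV+ and EV- samples. The main test did not use this pairing, so its p-values and intervals for EV+ against EV- are unpaired. The block used the number across all 4 groups, control and GN included. Promoter windows came from RefSeq (GRCr8), and their coordinates are not those of the counts.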

Additional observations from a re-analysis of the deposited data

How the results depend on the processing

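Of 972 recomputed values, 906 kept their direction and their side of the threshold, 32 lost a call, 5 gained a call and 29 changed sign, 27 of these on leaving out a library. Without the intensity trend, the members called fell to 0 among the 4 groups and in GN, EV+ and EV- against control. In GN against control 1 member was called with edgeR, with RLE size factors and with only the groups compared. In EV+ against control 1 was called with the replicate block and with only the groups compared. In EV- against control DESeq2 called 3. Leaving out 1 library gave 0 to 2 called members among the 4 groups, 0 to 2 in GN, 0 to 2 in EV+ and 0 to 1 in EV- against control, and 0 in the comparisons without the control. *Cd14* in GN against control was lost without GN replicate 1 or 2, control replicate 2, EV+ replicate 3 or EV- replicate 1 or 3 (limma adjusted p of up to 0.5565). *Tlr9* in EV- against control was lost without control replicate 1 or 2 or EV- replicate 1 or 3 (up to 0.422), and in EV+ against control without control replicate 1 or 2, GN replicate 1 or 2, EV+ replicate 1 or 3 or EV- replicate 1 (up to 0.532). The replicate block, in which the pairing of EV+ and EV- enters, lost *Tlr9* in EV+ against control (-0.52), turned *Myd88* to -0.00459 and -0.00485 in EV+ and EV- against control, and changed no other call of a member. The cause of these changes was not tested. The uncalled differences that changed sign had these ranges of log2 differences on leaving out each library. In GN against control -0.95 to 0.26 for *Tlr3*, -0.21 to 0.0312 for *Tlr4* and -0.0539 to 0.0319 for *Tlr8*. In EV+ against GN -0.94 to 0.27 for *Tlr3*, -0.0768 to 0.16 for *Tlr4* and -0.0864 to 0.29 for *Cd14*. In EV- against GN -0.0226 to 0.0292 for *Tlr2*, -0.0164 to 0.22 for *Tlr4* and -0.14 to 0.0384 for *Tlr8*. In EV+ against EV- -0.0265 to 0.21 for *Tlr9* and -0.0204 to 0.0259 for *Myd88*. In EV+ against control -0.16 to 0.000375 for *Tlr1*, -0.10 to 0.0105 for *Tlr4*, -0.34 to 0.0197 for *Tlr7*, -0.00533 to 0.0861 for *Tlr8* and -0.00922 to 0.0371 for *Myd88*. In EV- against control -0.0413 to 0.0709 for *Tlr4*, -0.15 to 0.0274 for *Tlr8* and -0.00021 to 0.0209 for *Myd88*. Over all genes, calls among the 4 groups and in GN, EV+ and EV- against control were 231, 158, 327 and 256, and 93, 60, 186 and 94 without the trend, or 543, 294, 540 and 474 with DESeq2. In EV+ against GN, EV- against GN and EV+ against EV- they were 11, 34 and 2, and 0, 6 and 0 without the trend, 41, 113 and 34 with DESeq2, and 30, 53 and 5 with the block. A pseudocount of 0.1 gave 4 in EV+ against EV-, and only the groups compared gave 155 in EV+ against control. Control and GN had 2 libraries each, and the smallest row maximum was 1.01 CPM. *Tlr3* was the member nearest the floor of detection. Its 0 and 35 reads in GN came from libraries of 25141257 and 26435903 reads, and the cause of this spread was not tested.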
